A study of Mus musculus with 4 samples.

Results

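The neutrophil-attracting CXC chemokines and their receptor were followed in single cells of mouse tumors: the ligand genes Cxcl1, Cxcl2, Cxcl3, Cxcl5, Ppbp and Pf4 and the receptor gene Cxcr2, which are 7 of the 32285 genes in the count matrices. They were chosen by gene symbol, each of which matched 1 row. There were 4 libraries, 1 for each combination of host (wild type, WT, or Lrrc25-/-, lacking the myeloid membrane protein gene Lrrc25) and transplanted tumor (MC38, a colon carcinoma line, collected at day 26, or B16F10, a melanoma line, collected at day 14), and no mouse had received a treatment. Each library was made from 100 mm3 of tumor from each of 3 mice, combined before dissociation, so that the spread between mice is not visible. Cells caught with CD45 beads were added to unsorted suspension in a ratio of 5:1, and the share of a cell class in a library is set in part by that mixing. The deletion is given as the genotype of the mice, not of the tumor lines, and their age is not stated.

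Chemokines with a Glu-Leu-Arg motif before the first cysteines bind the G protein-coupled receptor Cxcr2, which neutrophils use to leave the bone marrow and to enter inflamed tissue. In mice, which lack a gene for Cxcl8, these ligands are Cxcl1 (KC), Cxcl2 (MIP-2), Cxcl3, Cxcl5 (LIX) and the processed form of Ppbp (Cxcl7). Cxcl1, Cxcl2 and Cxcl3 are induced rapidly by NF-kappaB in macrophages, neutrophils, fibroblasts and epithelium, and their mRNAs are short-lived. Ppbp and Pf4 (Cxcl4) are best known as products of megakaryocytes and platelets. Pf4 lacks the Glu-Leu-Arg motif and is not a classical Cxcr2 ligand.

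The ligand genes form a cluster, with the widest gap between Cxcl3 and Cxcl1. On mm10 they lie on the plus strand of chromosome 5, and the 6 of them span 147 kb, in the order Cxcl5 (chr5:90759360-90761624), Ppbp (chr5:90768518-90770063), Pf4 (chr5:90772435-90773383), Cxcl3 (chr5:90786103-90789600), Cxcl1 (chr5:90891241-90893115) and Cxcl2 (chr5:90903871-90905938). Cxcr2 lies on chromosome 1 (chr1:74153989-74161246, plus strand) and has 1 coding exon, against 4 in Cxcl1, Cxcl2, Cxcl3 and Cxcl5 and 3 in Ppbp and Pf4. Promoter sequences in RefSeq (GRCm38.p6) matched 6 of the 7 genes, all but Cxcl5. The windows from 110 to 21 bases before the start in RefSeq are shown for the 5 of them in the cluster. Capitals mark exact matches to GGAATTTCC, an NF-kappaB-type motif, and ATAAAAGG, a TATA-type motif, or their reverse complements. Other TATA-like letters, such as those at the end of the Ppbp window, are not marked. Both motifs were chosen after the promoters had been seen, so a difference between these genes in holding them is a description and not a test.
Cxcl1 (chr5:90891135-90891224): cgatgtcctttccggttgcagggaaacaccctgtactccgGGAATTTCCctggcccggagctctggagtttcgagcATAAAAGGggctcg
Cxcl2 (chr5:90903789-90903878): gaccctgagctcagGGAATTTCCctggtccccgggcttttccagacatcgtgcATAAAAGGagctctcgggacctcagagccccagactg
Cxcl3 (chr5:90785991-90786080): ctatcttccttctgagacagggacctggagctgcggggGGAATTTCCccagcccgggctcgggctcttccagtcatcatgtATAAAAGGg
Ppbp (chr5:90768408-90768497): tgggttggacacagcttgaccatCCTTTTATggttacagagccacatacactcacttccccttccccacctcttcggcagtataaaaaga
Pf4 (chr5:90772325-90772414): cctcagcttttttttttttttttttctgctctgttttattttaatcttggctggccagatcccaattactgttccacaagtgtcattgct
GGAATTTCC was searched on both strands and was present in the promoters of Cxcl1, Cxcl2 and Cxcl3, where it began at positions -70, -96 and -72 from the RefSeq start. That start lies 28 bases downstream of the GENCODE gene start given above for Cxcl2, so that the Cxcl2 window runs past the latter and the motif lies at -68 from it; for the other genes shown both starts lie within 4 bases. Of all 32544 promoters of 300 bases in the table, 104 (0.320%) held it. ATAAAAGG was present in 572 (1.76%), among them Cxcl1, Cxcl2, Cxcl3 and, on the reverse strand, Ppbp, and 4 promoters of 32544 (0.0123%) held both. A match describes letters only and is not a measured binding site. The pentamer ATTTA, the core of AU-rich elements that shorten mRNA life, was found 11 times in the 3' untranslated region of Cxcl2, 7 times in Cxcl1, 5 times in Cxcl3 and in Cxcl5, 2 times in Cxcr2 and 1 time in Ppbp and in Pf4, against a median of 1 over 21901 genes. Per 1000 bases this was 15.0 in Cxcl2 and 11.8 in Cxcl1, densities reached by 0.265% and 0.551% of genes with at least 100 bases of such sequence.

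The libraries held 10490 to 18545 barcodes and 105338548 to 138841749 unique molecular identifiers (UMIs, each counting 1 captured mRNA molecule), and 9319 to 15792 cells per library were kept. Lrrc25 itself, checked first, stood at 162 and 94.3 CPM (a class's UMIs of the gene per 1000000 of its UMIs) in monocytes and macrophages of the WT B16F10 and WT MC38 libraries, and at 4.91 and 2.08 CPM in the matching Lrrc25-/- libraries. Cells were assigned to classes by marker lists that hold none of the 7 genes. Monocytes and macrophages numbered 3791 (WT B16F10), 4549 (Lrrc25-/- B16F10), 9358 (WT MC38) and 9356 (Lrrc25-/- MC38). Neutrophils numbered 84, 414, 150 and 235 in the same order, with all 10 neutrophil markers detected and summing to 48740 to 92521 CPM. Their median of 1075 to 1363 UMIs per cell was far below the 4344 to 9674 of all kept cells. Between 2.85% and 3.15% of a library's barcodes also occurred in another library. T cells served as a gauge of RNA that reaches cells from elsewhere: their Cxcl2 was 36.8% of the monocyte and macrophage CPM in the WT B16F10 library, 8.83% in Lrrc25-/- B16F10, 1.59% in WT MC38 and 4.47% in Lrrc25-/- MC38. In the WT B16F10 library the T cells reached 123% for Cxcl3 and 174% for Ppbp, but 3.43% for the macrophage gene C1qa. The 301 Ppbp UMIs of these T cells were held by 14 cells. The WT B16F10 values of Cxcl3 and Ppbp in macrophages were therefore not above those in T cells, and the part of this signal in the comparisons below was not tested.

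Summed over each library, monocytes and macrophages held most of the Cxcl2 and Pf4 mRNA. They were 40.7% of kept cells in WT B16F10, 39.4% in Lrrc25-/- B16F10, 59.3% in WT MC38 and 61.1% in Lrrc25-/- MC38. In MC38 their shares of the Cxcl1 and Cxcl3 UMIs, given below, were under these shares of cells. They held 70.5% of the Cxcl2 UMIs in WT B16F10, 68.1% in Lrrc25-/- B16F10, 75.3% in WT MC38 and 73.5% in Lrrc25-/- MC38. Pf4 was held by the same cells to 89.0%, 90.2%, 91.8% and 95.2%. Cxcl3 was split, with 47.7%, 56.0%, 52.8% and 55.7% in monocytes and macrophages and 35.2%, 34.7%, 42.8% and 36.3% in cells that passed no gate. Cxcl1 had a further source in MC38, where cells gated on Sox9, Tnnt2 and Crabp2 held 33.3% (WT) and 38.7% (Lrrc25-/-) beside the 40.1% and 38.9% in monocytes and macrophages. The list behind that gate came from an earlier clustering of these data, and the epithelial keratin genes on it were absent or nearly so, with Krt18 at 0 and Krt8 at 0.206 and 0.205 CPM, so that the cells are named by their genes. Cxcl5 was mainly in fibroblasts, at 58.6%, 49.0%, 74.7% and 94.7% of its UMIs, although these cells were 0.513% to 1.26% of kept cells. Cxcr2 was mainly in neutrophils, at 48.6% of 37 UMIs, 74.2% of 163, 75.0% of 92 and 86.0% of 178. Neutrophils held 4.95% or less of the Cxcl2 UMIs of any library.

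**Figure D1:**
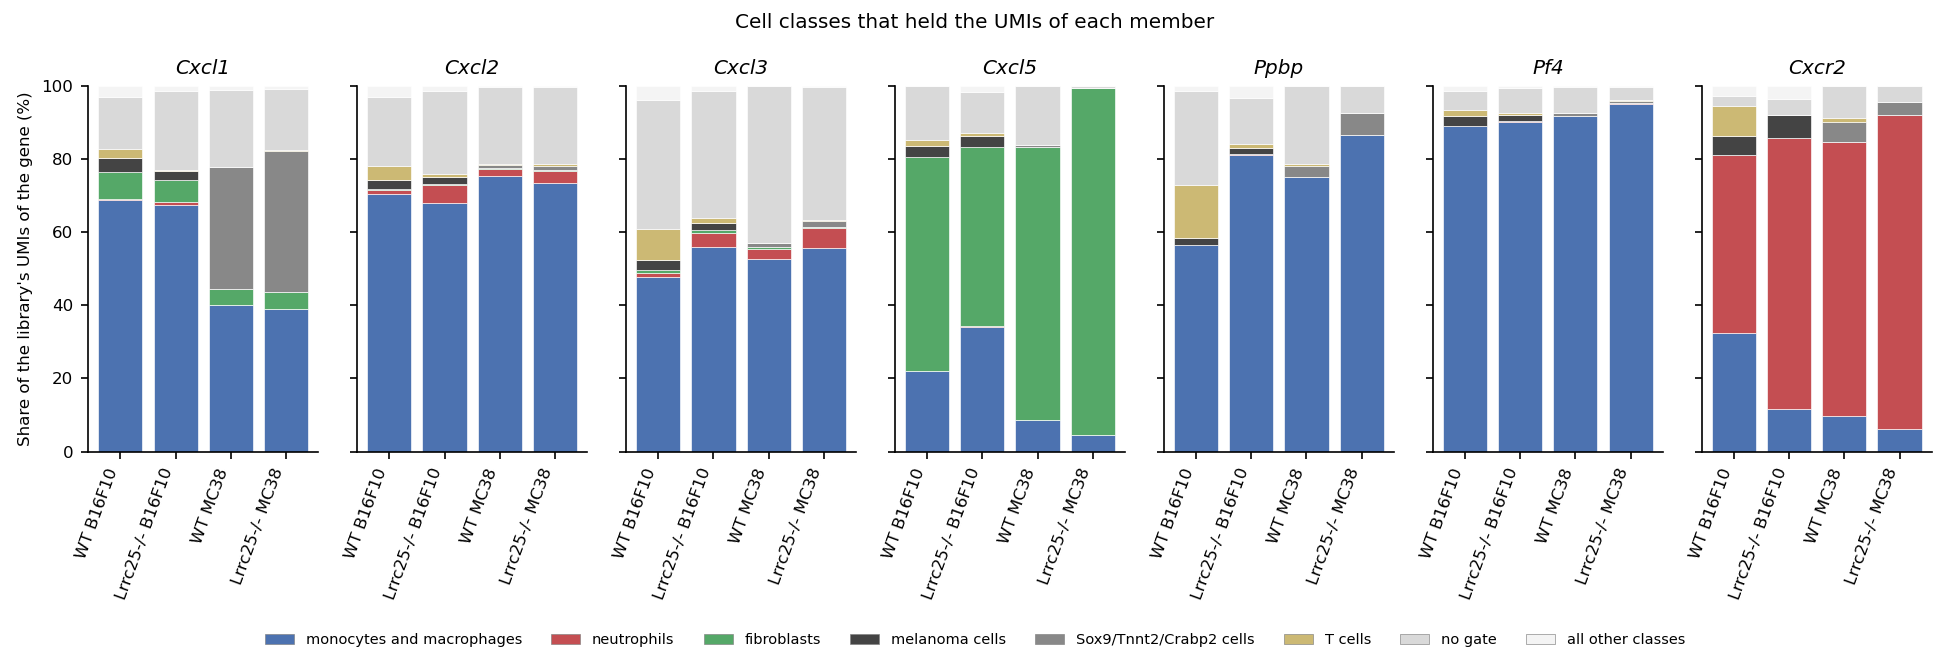
Share of each gene's UMIs in a library (percent, vertical axis) held by each cell class (colors), with 1 bar per library and 1 panel per gene. Monocytes and macrophages hold most Cxcl2 and Pf4 in all 4 libraries, fibroblasts hold 49.0% to 94.7% of Cxcl5 and neutrophils 48.6% to 86.0% of Cxcr2.

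The receptor Cxcr2 was a neutrophil gene in all 4 libraries. Its level in neutrophils was 104 CPM (95% counting interval 61.6 to 164) in WT B16F10, 177 (147 to 212) in Lrrc25-/- B16F10, 370 (288 to 468) in WT MC38 and 439 (372 to 515) in Lrrc25-/- MC38. In monocytes and macrophages it was between 0.216 and 0.459 CPM, and in fibroblasts no UMI was seen in any library, which allows up to 2.33 to 5.58 CPM. The share of neutrophils with a Cxcr2 UMI was 19.0%, 21.5%, 27.3% and 38.7%, against 0.158%, 0.308%, 0.0855% and 0.118% of monocytes and macrophages, which were sequenced more deeply. In cells thinned to 1000 UMIs the neutrophil shares were 16.1%, 11.4%, 27.2% and 32.2%, of the 56, 280, 92 and 208 cells deep enough. All 4 neutrophil values lay above every other class. Over the 4 libraries as blocks, Cxcr2 was higher in neutrophils than in monocytes and macrophages by a log2 fold of 9.43 ± 0.428 (SE, 4 libraries, edgeR quasi-likelihood test, adjusted p = 2.20e-103). Its relative Cxcr1, another neutrophil chemokine receptor, was higher by 8.97 ± 0.955 in the same test (adjusted p = 4.41e-19). Cxcr1 had 0 UMIs in WT and 1 in Lrrc25-/- monocytes and macrophages of either model, and so entered the test through neutrophils. These p-values rest on a dispersion pooled over genes and not on the spread of 1 gene alone. In that comparison 11.9% of 13959 genes were higher and 28.6% lower in neutrophils, and the median of all genes was -0.71. With relative log expression scaling the split was 2122 higher and 2997 lower, against 1660 and 3993, and in DESeq2 2053 and 2150.

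All 7 genes were called between neutrophils and monocytes and macrophages in this test, 3 of them higher in neutrophils and 4 lower. Of these, Cxcr2, Ppbp and Cxcl5 were at or near 0 in the lower class and entered the test through the higher class. Cxcl2 was the most abundant ligand in neutrophils, at 15500 CPM in WT B16F10, 44423 in Lrrc25-/- B16F10, 30018 in WT MC38 and 26235 in Lrrc25-/- MC38. In monocytes and macrophages it was 5465, 10089, 5255 and 4068 CPM, below the neutrophil value of the same library each time. The log2 fold was 2.01 ± 0.463 (adjusted p = 8.60e-05). Cxcl3 was 1987, 5396, 3316 and 2842 CPM in neutrophils and 440, 1274, 296 and 199 in monocytes and macrophages, a log2 fold of 2.69 ± 0.389 (adjusted p = 1.30e-10). Cxcl1 ran the other way. It was 514, 1092, 187 and 152 CPM in neutrophils and 1044, 1774, 534 and 403 in monocytes and macrophages, with a log2 fold of -1.36 ± 0.341 (adjusted p = 0.000374; 0.0583 without the WT MC38 library). Pf4 was 653, 546, 69.6 and 83.3 CPM in neutrophils and 5234, 5980, 1944 and 1627 in monocytes and macrophages (log2 fold -4.04 ± 0.417, adjusted p = 2.90e-20). The macrophage marker list summed to 1352, 1224, 445 and 916 CPM in the same neutrophils, with 7 or 8 of its 8 genes detected, and its part in the Pf4 value was not tested. For Ppbp, 7 UMIs were found in neutrophils of Lrrc25-/- B16F10 and 0 in the other 3 libraries, which allows up to 10.6 to 21.3 CPM. Monocytes and macrophages of MC38, at 3.49 (WT) and 1.14 (Lrrc25-/-) CPM, lay below these bounds, so the MC38 libraries cannot show a difference in Ppbp. Cxcl5 gave 1 UMI in all neutrophils, and its call (adjusted p = 0.0149) was lost in DESeq2 (0.652) and without the WT MC38 library (0.0754). In MC38 its monocyte and macrophage levels of 0.420 and 0.137 CPM were likewise too low for a difference to show.

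Fibroblasts had a different ligand set, rich in Cxcl1 and Cxcl5. Cxcl1 was 3228 CPM in WT B16F10, 4269 in Lrrc25-/- B16F10, 3539 in WT MC38 and 3127 in Lrrc25-/- MC38, the highest of any class in each library among cells that passed a gate. Between 84.1% and 94.2% of fibroblasts had a Cxcl1 UMI. Cxcl5 was 256, 589, 224 and 184 CPM there, against 3.32, 15.7, 0.420 and 0.137 in monocytes and macrophages. These Cxcl5 values rest on 19, 26, 15 and 17 cells, and the single highest cell held 36.2%, 23.4%, 35.1% and 19.0% of the UMIs. Cxcl2 was lower in fibroblasts, at 887, 949, 946 and 797 CPM. In a comparison added after the levels had been seen, fibroblasts exceeded monocytes and macrophages for Cxcl1 by a log2 fold of 1.81 ± 0.264 (edgeR adjusted p = 0.000350) and for Cxcl5 by 7.03 ± 0.781 (5.35e-05), and were below them for Cxcl2 by -3.05 ± 0.192 (1.06e-06), Cxcl3 by -1.63 ± 0.190 (7.52e-05), Ppbp by -5.88 ± 0.394 (1.60e-06) and Pf4 by -5.87 ± 0.239 (7.89e-08). In it 16.9% of 15287 genes were higher in fibroblasts and 23.4% lower (2585 and 3574). With DESeq2 these counts were 3002 and 2729, and with library totals alone 3218 and 2227. Ppbp had 1 UMI in fibroblasts of WT B16F10, 5 in Lrrc25-/- B16F10 and 0 in both MC38 libraries. It entered the test through monocytes and macrophages. Their MC38 levels of 3.49 (WT) and 1.14 (Lrrc25-/-) CPM lay below the counting bound on 0 fibroblast UMIs, so MC38 cannot show a difference in Ppbp.

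The gated melanoma cells, found in B16F10, and the Sox9, Tnnt2 and Crabp2 cells, found in MC38, had different Cxcl1 levels, and whether the latter are tumor cells was not tested. Melanoma cells of the B16F10 libraries had 22.9 (WT) and 47.6 (Lrrc25-/-) CPM of Cxcl1 and 73.7 and 216 of Cxcl2, in both cases below the T cells of the same library. The Sox9, Tnnt2 and Crabp2 cells of MC38 had 618 (WT) and 699 (Lrrc25-/-) CPM of Cxcl1, with a UMI in 72.2% and 74.7% of cells, while T cells of those libraries had 17.1 and 21.2 CPM. Their Cxcl2 was 89.7 and 116 CPM, close to the 83.5 and 182 of T cells. Endothelial cells reached 50 cells only in WT B16F10, where Cxcl1 was 829 CPM.

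**Figure D2:**
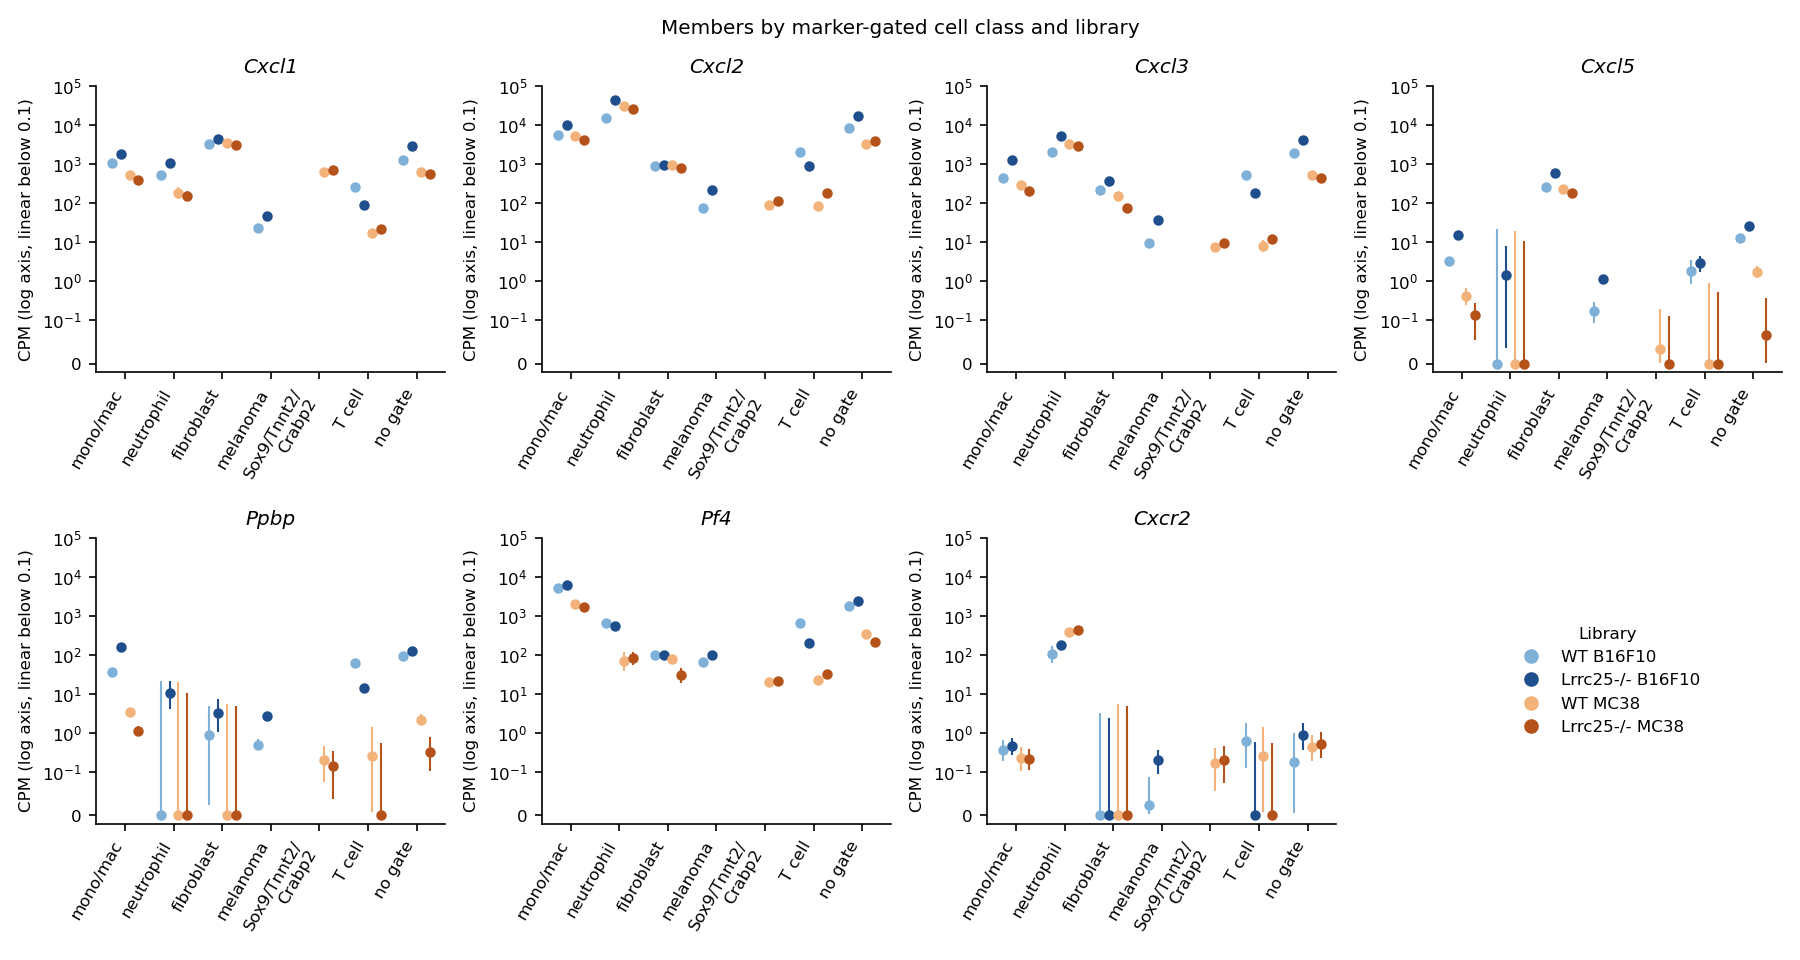
CPM (log axis, linear below 0.1) of each gene in 7 cell classes, 1 point per library with its 95% Poisson interval, which covers counting error only. Cxcr2 is above 100 CPM in neutrophils of all 4 libraries and below 1 CPM in the other classes shown; Cxcl1 and Cxcl5 peak in fibroblasts and Pf4 in monocytes and macrophages.

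Host genotype was compared within each tumor model, where there was 1 library a side and hence no test. A gene counted as higher or lower when it had 20 CPM in either library, 50 UMIs in both together and a 1.5-fold difference. In B16F10, 4 of the 5 members that passed the level filter in monocytes and macrophages were higher in the Lrrc25-/- library and 0 lower, where 3.81% of 4704 genes were higher and 0.850% lower. The median log2 difference was 0.88 for those 5 members and 0.02 for all genes. Cxcl1 was 1044 CPM in WT and 1774 in Lrrc25-/-, a ratio of 1.70 (1.68 to 1.72). Cxcl2 was 5465 and 10089 CPM, a ratio of 1.85 (1.84 to 1.86). Cxcl3, at 440 and 1274 CPM, gave 2.89 (2.84 to 2.95), and the share of these cells with a Cxcl3 UMI was 29.1% and 51.5% (12.6% and 28.8% after thinning). Ppbp was 36.0 and 157 CPM, a ratio of 4.36 (4.10 to 4.64). Cxcl5 was 3.32 and 15.7 CPM, under the level filter, and Pf4 was 5234 and 5980 CPM, a ratio of 1.14 (1.14 to 1.15). Intervals on ratios and levels are at 95% and cover counting error only. In T cells of B16F10 the same genes were lower in the Lrrc25-/- library, where 4.74% of 5172 genes were lower: the ratio was 0.345 for Cxcl1, 0.443 for Cxcl2, 0.342 for Cxcl3, 0.230 for Ppbp and 0.318 for Pf4. Without doublet removal Cxcl2 there was -0.28 on the log2 scale and no longer called.

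In MC38 the same genes were not higher in the Lrrc25-/- library. There 0 of the 4 members that passed the level filter were called in either direction, where 0.725% of 5797 genes were higher and 2.47% lower (42 and 143, or 64 and 105 with TMM scaling). Cxcl1 was 534 CPM in WT and 403 in Lrrc25-/-, a ratio of 0.754. Cxcl2 was 5255 and 4068 CPM, a ratio of 0.774. Cxcl3 was 296 and 199 CPM, a ratio of 0.671 (0.654 to 0.689), just short of the size required, and Pf4 was 1944 and 1627 CPM, a ratio of 0.837. All 4 values lay below 1, opposite in direction to B16F10. Ppbp was 3.49 and 1.14 CPM, under the level filter. In T cells of MC38 Cxcl2 was higher in Lrrc25-/- (83.5 and 182 CPM, a ratio of 2.18), again opposite to monocytes and macrophages, and not called without doublet removal (0.32 on the log2 scale).

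Neutrophils had higher Cxcl1, Cxcl2 and Cxcl3 in the Lrrc25-/- library in B16F10 and not in MC38. In B16F10, 4 of the 5 members that passed the filter were higher in the Lrrc25-/- library, but so were 27.1% of 1781 genes, with 16.6% lower. With TMM scaling the 483 higher and 295 lower genes became 723 and 127, a shift of every gene by 0.30 on the log2 scale that moved the median from 0.10 to 0.40. Cxcl2 was 15500 CPM in WT and 44423 in Lrrc25-/-, a ratio of 2.87 (2.75 to 2.98). Cxcl3, at 1987 and 5396 CPM, gave 2.72 (2.43 to 3.04), and Cxcl1, at 514 and 1092 CPM, gave 2.12 (1.70 to 2.68). Cxcr2 was 104 and 177 CPM from 18 and 121 UMIs, a ratio of 1.70 (1.03 to 2.97). The share of cells with a Cxcr2 UMI was not higher in Lrrc25-/- after thinning, at 16.1% in WT and 11.4% in Lrrc25-/-, with overlapping counting intervals. Those shares rest on the 56 and 280 cells with at least 1000 UMIs. The WT side of this comparison rests on 84 cells. In MC38, 0 of 4 members were called, where 16.7% of 1693 genes were higher and 14.1% lower. The ratios were 0.874 (0.845 to 0.904) for Cxcl2, 0.857 (0.775 to 0.949) for Cxcl3 and 1.19 (0.889 to 1.60) for Cxcr2. Cxcl1, from 35 and 53 UMIs, gave 0.812 (0.520 to 1.28), and its sign turned with equal weight per cell, to 0.27 on the log2 scale. In fibroblasts of B16F10, 2 members were higher (Cxcl5, 2.30, 2.01 to 2.64, and Cxcl3, 1.71, from 220 to 376 CPM), where 10.2% of 4665 genes were higher and 5.12% lower. In fibroblasts of MC38, Cxcl3 (148 and 73.9 CPM, 0.498) and Pf4 (75.6 and 29.8 CPM, 0.394) were lower, where 8.97% of 4502 genes were higher and 9.17% lower, while Cxcl5 was 0.822 and Cxcl1 0.884. The Cxcl3 difference in B16F10 fibroblasts turned to -0.32 on the log2 scale when cells were weighted equally.

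**Figure D3:**
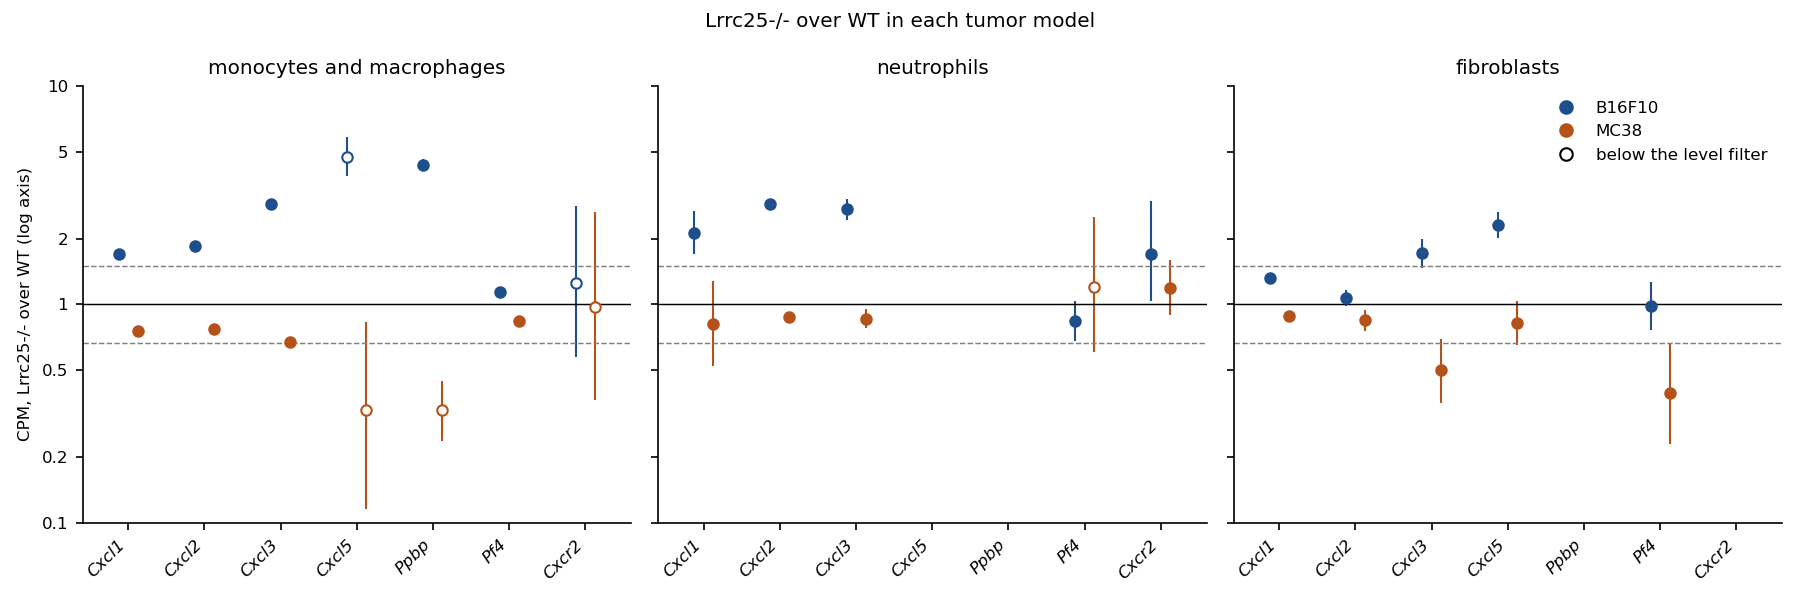
Ratio of CPM in the Lrrc25-/- over the WT library (log axis) for each gene, with its 95% counting interval, in 3 cell classes; blue is B16F10 and brown MC38, dashed lines mark 1.5-fold, open points lie under the level filter and genes with too few UMIs are left out. Cxcl1, Cxcl2 and Cxcl3 lie above 1 in B16F10 and below 1 in MC38 in both myeloid classes, with an interval that includes 1 for Cxcl1 in MC38 neutrophils.

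A replicated test of genotype could use only the 2 tumor models as replicates, with 1 residual degree of freedom, and differences that point opposite ways in them count as error there. In monocytes and macrophages edgeR called 1 of 15145 genes (0.00660%; 486 had an unadjusted p under 0.05, and DESeq2 called 9). It was Lrrc25 itself, at -5.24 ± 0.194 (adjusted p = 9.85e-06), and no member was called. The log2 folds of Lrrc25-/- over WT were 0.20 ± 0.291 for Cxcl1, 0.27 ± 0.366 for Cxcl2, 0.50 ± 0.415 for Cxcl3, 0.66 ± 0.671 for Ppbp and -0.01 ± 0.285 for Pf4, all with an adjusted p of 0.999. Cxcl5, at 1.24 ± 0.642, passed only with no filter on low counts (adjusted p = 0.0203). In neutrophils 2 of 3295 genes were called (0.0607%; 68 had an unadjusted p under 0.05, and DESeq2 called 4), Lrrc25 at -6.37 ± 0.748 and the granule gene Camp at 6.51 ± 0.758, both with an adjusted p of 0.00129. No member was called, with 0.65 ± 0.861 for Cxcl2, 0.59 ± 0.639 for Cxcl3, 0.43 ± 0.521 for Cxcl1 and 0.48 ± 0.462 for Cxcr2. On simulated counts this design found 54.6% of 2-fold changes in monocytes and macrophages and 6.74% in neutrophils.

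The tumor models themselves differed in ligand level. In monocytes and macrophages all 6 ligands were lower in MC38 than in B16F10, in a comparison in which 31.4% of 15145 genes were higher in MC38 and 30.2% lower (4755 and 4567; with library totals in place of TMM 6362 and 2702, the median of all genes then being 0.45 rather than 0.04). The log2 fold was -1.97 ± 0.301 for Cxcl1 (edgeR adjusted p = 0.000501), -2.04 ± 0.426 for Cxcl3 (0.00279), -2.07 ± 0.297 for Pf4 (0.000352), -5.25 ± 0.682 for Cxcl5 (0.000205) and -5.55 ± 0.720 for Ppbp (0.000204). Ppbp was 36.0 and 157 CPM in the B16F10 libraries and 3.49 and 1.14 in MC38, without overlap. Cxcl2, at -1.10 ± 0.370 (0.0277), lost its call with library totals (-0.68, 0.135) and in DESeq2 (0.261), and its WT values of 5465 and 5255 CPM were close. In neutrophils 13.9% of 3295 genes were higher in MC38 and 18.6% lower (459 and 612; with library totals 1151 and 407, with a median of 0.67). Cxcl1 was lower by a log2 fold of -2.78 ± 0.545 (0.00538) and Pf4 by -3.54 ± 0.521 (0.00192). Cxcl2 (-0.51, adjusted p = 0.659) and Cxcl3 (-0.70, 0.398) did not pass, and Cxcr2 at 0.94 ± 0.462 (0.125) passed only with library totals (1.54, 0.0113). Tumor line, day of collection and library preparation cannot be told apart in this comparison.

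Within monocytes and macrophages, cells with at least 500 CPM of Arg1, the arginase gene of tumor macrophages, and less than that of Cxcl9, an interferon-induced chemokine gene, had the highest Cxcl1, Cxcl2 and Cxcl3 in all 4 libraries among the subsets of at least 50 cells cut on Arg1, Cxcl9 and Mrc1. They had 2117 (WT) and 4031 (Lrrc25-/-) CPM of Cxcl3 in B16F10, where cells with neither of these but with the mannose receptor gene Mrc1 had 198 and 418. In MC38, where cells with both Arg1 and Cxcl9 were 18.4% and 21.4%, the Arg1 cells had 393 and 342 CPM of Cxcl3, the Mrc1 cells 221 and 104 and the Cxcl9 cells 114 and 62.4. Ppbp followed Arg1 more closely still in B16F10, at 273 and 663 CPM in Arg1 cells and 8.91 and 20.7 in Mrc1 cells. The Arg1 cells were 9.73% of WT and 21.9% of Lrrc25-/- monocytes and macrophages in B16F10, but 48.5% and 29.9% in MC38, and Cxcl9 cells were 14.3% and 24.5% in MC38. For Cxcl2 in WT MC38 the Arg1 cells led by little. They had 5723 CPM, the Mrc1 cells 5667 and the cells with both Arg1 and Cxcl9 5529. In a different division, the 108 cells of WT MC38 in which the monocyte list led had 6854 CPM of Cxcl2 and 823 of Cxcl3. These lay above the 5723 and 393 of the Arg1 cells. Cxcl1 in the Cxcl9 cells of B16F10 went against the other subsets of that model, at 812 CPM in WT and 595 in Lrrc25-/-. When the subsets of the Lrrc25-/- library were weighted as in WT, the B16F10 ratio was 1.44 for Cxcl1, 1.57 for Cxcl2, 2.02 for Cxcl3, 2.39 for Ppbp and 0.999 for Pf4, against 1.70, 1.85, 2.89, 4.36 and 1.14 unweighted. In MC38 the weighted ratios were 0.854, 0.856 and 0.819 for Cxcl1, Cxcl2 and Cxcl3 and 0.990 for Pf4, nearer to 1 than the unweighted ones.

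Many cells rich in Cxcl3 lay outside the gates, with levels above those of neutrophils in B16F10 and below them in MC38. Cells that passed no gate but had the monocyte receptor gene Cd14 at 1000 CPM or more numbered 345, 695, 926 and 905. Their Cxcl3 was 4517 CPM in WT B16F10, 6900 in Lrrc25-/- B16F10, 1625 in WT MC38 and 997 in Lrrc25-/- MC38, and they held 32.3% to 35.2% of each library's Cxcl3 UMIs. Their Cxcl2 was 19455, 28639, 9510 and 8591 CPM and their Cxcl1 2593, 4861, 1214 and 902. Both C1qa (86.1 to 209 CPM) and the neutrophil gene S100a8 (55.8 to 117 CPM) were low in them. The B16F10 ratios were 1.87 for Cxcl1, 1.47 for Cxcl2 and 1.53 for Cxcl3, and the MC38 ratios 0.743, 0.903 and 0.614, in the directions seen in gated cells. With these cells added to the monocytes and macrophages, Cxcl3 in MC38 passed the size rule as lower, at -0.63 on the log2 scale.

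**Figure D4:**
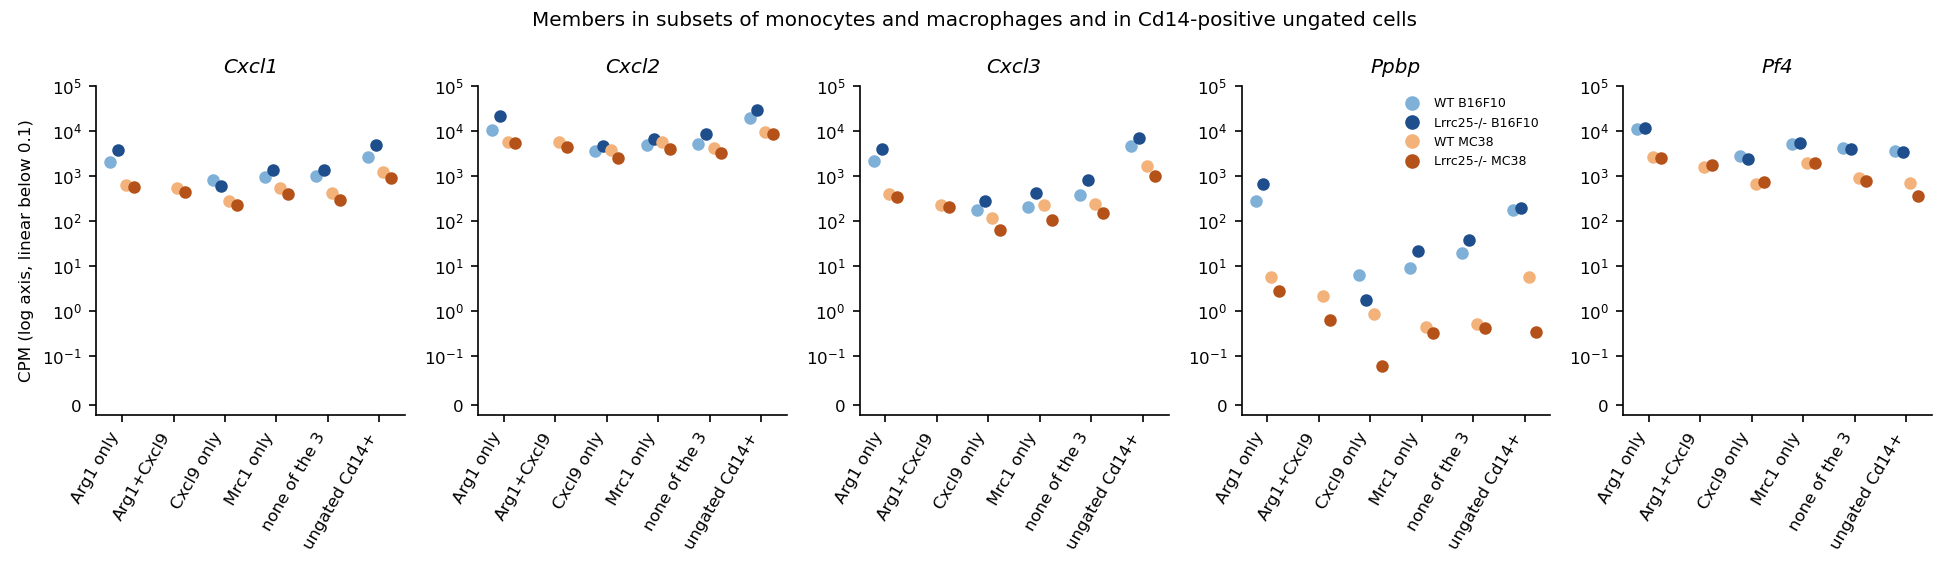
CPM (log axis, linear below 0.1) of 5 ligands in subsets of monocytes and macrophages, cut at 500 CPM of Arg1, Cxcl9 and Mrc1, and in Cd14-positive cells that passed no gate; each point is 1 library and subsets under 50 cells are left out. Cxcl3 and Ppbp are highest in Arg1 cells and in ungated Cd14-positive cells of B16F10.

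Within single monocytes and macrophages, thinned to 1000 UMIs, cells with a Cxcl3 UMI had a mean of 13.6 Cxcl2 UMIs against 4.31 in cells without one in WT B16F10, 22.5 against 6.24 in Lrrc25-/- B16F10, 10 against 4.43 in WT MC38 and 8.02 against 3.38 in Lrrc25-/- MC38. Spearman's rho between Cxcl2 and Cxcl3 across these cells was 0.34, 0.52, 0.30 and 0.25, and between Cxcl1 and Cxcl2 0.38, 0.41, 0.34 and 0.25, as descriptions of cells that share a library.

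Platelet markers were at or near 0 in the cells that held Ppbp and Pf4. No cell passed the platelet and megakaryocyte gate in any library, which allows at most 0.0234% to 0.0396% of kept cells. The monocytes and macrophages with a Ppbp UMI numbered 204, 495, 63 and 27, and the 8 platelet markers gave them 2, 2, 0 and 0 UMIs in all, or 1.04, 0.380, 0 and 0 CPM. Pf4 was 11584, 12367, 6650 and 7489 CPM in the cells with a Ppbp UMI and 4833, 5047, 1897 and 1601 in those without, higher with Ppbp in each library. Pf4 had a UMI in 95.3%, 91.6%, 74.2% and 70.8% of monocytes and macrophages.

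Neutrophil shares were set beside these levels. Neutrophils were 84 of 4688 gated immune cells (1.79%) in WT B16F10 and 414 of 6754 (6.13%) in Lrrc25-/- B16F10, a ratio of 3.42 (2.70 to 4.38). The MC38 libraries held 150 neutrophils among 10473 gated immune cells (1.43%) in WT and 235 among 11297 (2.08%) in Lrrc25-/-, a ratio of 1.45 (1.18 to 1.79). The Lrrc25-/- library thus had the larger neutrophil share in both models. The Cxcl1, Cxcl2 and Cxcl3 levels of monocytes and macrophages were higher in that library in B16F10 and lower in MC38, so that share and ligand levels moved together in the one model and apart in the other. Lrrc25-/- B16F10 had the highest share and the highest level of each of these 3 ligands and of fibroblast Cxcl5, whereas Lrrc25-/- MC38 had the second share and the lowest level of each of these. With 4 libraries no correlation was computed. Over all kept cells Cxcr2 was 0.286 CPM in WT B16F10, 1.45 in Lrrc25-/- B16F10, 0.978 in WT MC38 and 1.69 in Lrrc25-/- MC38, and so higher in the Lrrc25-/- library of each pair.

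**Figure D5:**
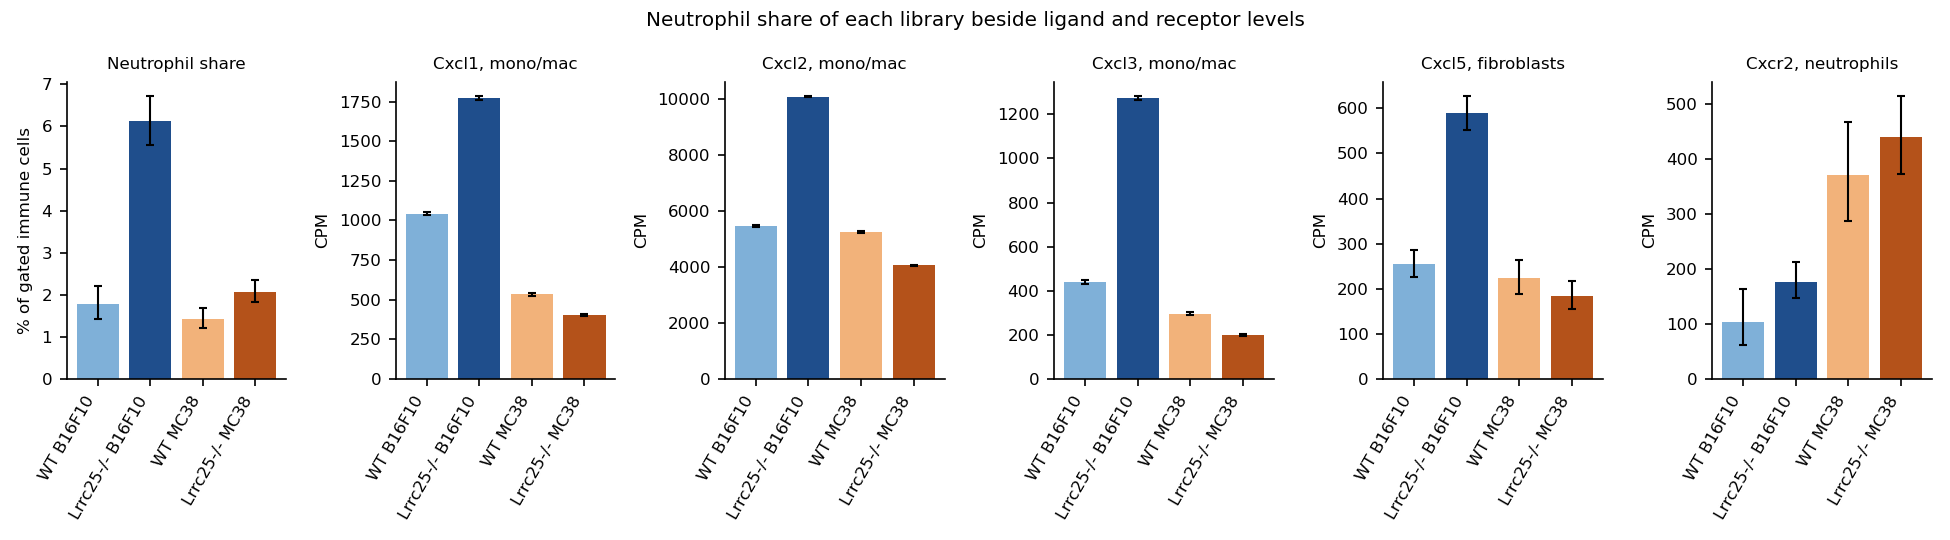
Neutrophils as a percentage of gated immune cells (left, with exact binomial 95% intervals) beside CPM of Cxcl1, Cxcl2 and Cxcl3 in monocytes and macrophages, Cxcl5 in fibroblasts and Cxcr2 in neutrophils (with 95% Poisson intervals), 1 bar per library. The Lrrc25-/- B16F10 bar is the tallest for the share and the 4 ligands; for Cxcr2 both MC38 bars stand above the B16F10 bars.

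Of the 39 other genes of the pathway (further receptors, neutrophil growth factors, inducers and feedback genes of NF-kappaB, and Cxcr2 signalling), 24 passed the level filter in B16F10 monocytes and macrophages, of which 6 were higher in Lrrc25-/- and 0 lower, beside 3.81% and 0.850% of all genes. In MC38, where 0.725% of all genes were higher and 2.47% lower, 0 of 24 were higher and 2 lower, Il1a and the chemokine gene Ccl3 (128 CPM in WT and 76.3 in Lrrc25-/-). The cytokine gene Il1a, whose product induces these chemokines, was 180 CPM in WT and 303 in Lrrc25-/- in B16F10 and 145 and 80.5 in MC38, the same 2 directions as the ligands. It was the only gene called among the 10 inducer and feedback genes that passed the level filter in these cells in each model. The other pathway genes higher in B16F10 were Cxcr4, C5ar1, Ltb4r1, Il17ra and S100a8. Cxcr4 (1.67 in B16F10 and 0.806 in MC38) and C5ar1 (1.56 and 0.747) had the same 2 directions as Il1a. Ltb4r1 (1.71 and 1.38) did not, and the MC38 values of these 3 genes were not called. The B16F10 ratios of Il1b (1.43), Tnf (1.48), Nfkb1 (1.32), Rela (1.07) and Nfkbia (0.962) were not called. In neutrophils 10 of 24 pathway genes were higher in B16F10 and 0 lower, beside 27.1% and 16.6% of all genes, and 4 of 22 higher (Il1b, Ltb4r1, Gnai2 and Rac2) and 1 lower (Tnfaip3, 889 and 442 CPM) in MC38, near the 16.7% and 14.1% of all genes. The B16F10 genes included the formyl peptide receptor gene Fpr1 (150 and 460 CPM in B16F10), the NF-kappaB gene Nfkb1 (80.9 and 250), Il1a (133 and 533) and Ccl3 (3229 and 7598). Il1b, the interleukin 1 beta gene, was 5806 and 9007 CPM in B16F10 neutrophils and 8405 and 13043 in MC38 neutrophils, a ratio of 1.55 in both. In the class comparison, 20 of 34 tested pathway genes were higher in neutrophils than in monocytes and macrophages and 1, Arrb2, lower, beside 11.9% and 28.6% of all genes, with S100a8, S100a9 and Csf3r among the 20 as gate markers. No pathway gene passed the genotype test.

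Il17a, whose product drives neutrophil recruitment through Csf3 and the CXC ligands, was higher in T cells of both Lrrc25-/- libraries. It was 10.8 CPM in WT and 36.5 in Lrrc25-/- B16F10 (52 and 239 UMIs), where 11.3% of 5172 genes were higher (584 higher and 245 lower, or 380 and 291 with TMM scaling), and 0.743 and 58.6 in MC38 (3 and 403 UMIs), where 4.28% of 6257 were higher (268 and 263, or 335 and 201 with TMM scaling). The Il17a UMIs lay in 13, 44, 3 and 44 T cells. In B16F10 these cells were 2.25% (1.20 to 3.82) of WT and 3.43% (2.50 to 4.57) of Lrrc25-/- T cells, with overlapping intervals. The top 5 cells held 65.4% of the Il17a UMIs in WT B16F10, 45.6% in Lrrc25-/- B16F10 and 61.8% in Lrrc25-/- MC38. Csf3, the gene for granulocyte colony-stimulating factor, was 6.05 CPM in WT and 130 in Lrrc25-/- fibroblasts of MC38, from 4 and 100 UMIs, of which 1 cell held 44.0%. It was lower in Lrrc25-/- in the other MC38 cells with at least 20 UMIs, at 134 and 14.4 CPM in neutrophils (25 and 5 UMIs, a ratio of 0.107, 0.0320 to 0.285) and 3.54 and 2.12 in monocytes and macrophages, both under the level filter. In the same fibroblasts Il1r1, the interleukin 1 receptor gene, was 106 and 302 CPM, and Cxcl12, the Cxcr4 ligand gene, 63.5 and 168. Transcripts of myeloid genes in T cells also differed: Il1b was 1082 CPM in WT and 396 in Lrrc25-/- T cells of B16F10, beside a summed macrophage list of 826 and 431 CPM, and 103 and 213 in MC38, beside 202 and 469.

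Across 32 class-by-library profiles and 7550 genes, the patterns most like Cxcl2 (Pearson's r of log2 CPM) were those of Slc11a1 at 0.95, Clec4d at 0.94, Il1a and Ccrl2 at 0.93 and Rab20 at 0.92. For Cxcl3 they were Il1a at 0.87, Ccrl2 and Slc11a1 at 0.86, and Slpi and Clec4d at 0.85. Pf4 was most like Ccl12 (0.93), Folr2 (0.90), Mmp12 (0.89), P2ry6 (0.87) and Lyz2 (0.86). Ppbp had weaker neighbors, Clec4b1 at 0.82 and Ccl24 at 0.71, followed by Il10, Ifnb1 and Gdf15 at 0.68 to 0.66. Cxcr2 was matched by Mrgpra2b, Chil1 and Stfa2 at 0.98 and by Mirt2 and Gm20406 at 0.97. Profiles of 1 library share its depth and its free RNA, and these values are descriptions.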

How the data were processed

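RNA was counted in single cells of 4 pooled tumor libraries made with a SeekOne droplet 3' kit, per the labels. The deposited values are raw UMI counts for each barcode, which the authors did not scale. Reads were placed on mm10 according to the submitters' processing notes; aligner and cell caller: not given in the sources used here. A 3' UMI counts 1 molecule whatever its length, so CPM was compared between genes. Barcodes needed 300 genes, 500 UMIs and at most 20% mitochondrial UMIs. Scrublet (scanpy 1.11.5) called 203, 0, 1 and 0 doublets by itself, so the top scores were removed at 0.5% per 1000 barcodes. A cell joined a class when at least 3 of its list's markers had a UMI and their summed CPM passed a cutoff set on the marker genes after seeing their distributions, 1.5 times above the next list.

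Summed counts were compared by the size rule (pseudocount 1 CPM) within a model, and by edgeR 4.0.16 (quasi-likelihood, TMM, filterByExpr, Benjamini-Hochberg, threshold 0.05; R 4.3.3) over the 4 libraries, with tumor model and genotype as terms or with the library as a block. DESeq2 1.42.0, other scalings, filters and gates were alternatives. Nothing says the pools are more than 1 tissue preparation each. The p-values rest on the spread between 4 libraries together with a dispersion pooled over genes. With 3 residual degrees of freedom in the class fits and 1 in the others, they do not measure the spread of 1 gene alone. Tested on simulated data with 200 changed genes, the block design found 10.6% of 2-fold and 59.4% of 4-fold changes between neutrophils and macrophages. Levels carry exact Poisson, shares exact binomial (Clopper-Pearson) and ratios exact conditional 95% intervals, for counting error only; a class needed 50 cells for a value. Beside the members, pathway genes were named when they passed the size rule or edgeR, the 10 with the largest change, and the 5 genes most alike in pattern; the other genes called in myeloid cells are given as counts. The members and lists were chosen with earlier results of these data known. Gene positions came from GENCODE M21. Columns of other series numbered 0.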

Additional observations from a re-analysis of the deposited data

Results flagged for a closer look

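In 13 cases the Lrrc25-/- to WT differences of a member had opposite signs in B16F10 and MC38, passed the size rule in at least 1 model and rested on at least 50 UMIs in each, with 1 library a side. Opposite signs that passed the rule in neither model are not counted. The share of all genes meeting this rule was not computed, so the count cannot be read as particular to the members. Calls over all genes in monocytes and macrophages also leaned opposite ways, with 179 higher and 40 lower in B16F10 and 42 higher and 143 lower in MC38. The difference between the models (log2 ratio in B16F10 minus log2 ratio in MC38) was not tested, since an interaction term leaves no residual degree of freedom. In monocytes and macrophages it was 1.17 for Cxcl1 (0.76 and -0.41), 1.25 for Cxcl2 (0.88 and -0.37), 2.10 for Cxcl3 (1.53 and -0.57) and 3.16 for Ppbp (2.09 and -1.07, the latter under the level filter). In neutrophils it was 1.71 for Cxcl2 (1.52 and -0.19) and 1.66 for Cxcl3 (1.44 and -0.22). For Cxcl1 there it was 1.39 (1.09 and -0.30), where the MC38 ratio of 0.812 has a counting interval of 0.520 to 1.28 and turned to 0.27 on the log2 scale with equal weight per cell. In fibroblasts it was 1.77 for Cxcl3 (0.77 and -1.0; the former -0.32 with equal weight per cell) and 1.48 for Cxcl5 (1.20 and -0.28, the latter a ratio of 0.822 with an interval of 0.648 to 1.04). In T cells the signs ran the other way, at -1.82 for Cxcl1 (-1.52 and 0.30), -2.28 for Cxcl2 (-1.17 and 1.11), -2.03 for Cxcl3 (-1.54 and 0.49) and -2.16 for Pf4 (-1.65 and 0.51). Without doublet removal the MC38 values of Cxcl1 and Pf4 in T cells turned to -0.41 and -0.18, and those of Cxcl2 were -0.28 in B16F10 and 0.32 in MC38.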

How the results depend on the processing

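In B16F10 monocytes and macrophages, Cxcl1 (0.75 to 0.86 on the log2 scale), Cxcl2 (0.87 to 0.95), Cxcl3 (1.40 to 1.70) and Ppbp (1.78 to 2.19) were called higher under all 9 alternatives, and in B16F10 neutrophils Cxcl1 (0.99 to 1.59), Cxcl2 (1.25 to 1.82), Cxcl3 (0.99 to 1.81) and Cxcr2 (0.60 to 1.06) under all 8. These alternatives did not use thinned cells. In those the share of B16F10 neutrophils with a Cxcr2 UMI was lower in Lrrc25-/- than in WT, with overlapping counting intervals. Of 297 alternative member values by the size rule 280 kept both call and sign, and of 235 in edgeR 225 did. By the size rule 11 turned sign, 9 of them uncalled both ways: with equal weight per cell Pf4 in B16F10 neutrophils (0.29; 0.05 with TMM), Cxcl1 in MC38 neutrophils (0.27) and fibroblasts (0.02) and Cxcl2 in B16F10 fibroblasts (-0.02); without doublet removal Cxcl1 (-0.41) and Pf4 (-0.18) in MC38 T cells and Cxcl2 (0.06) in MC38 fibroblasts; without shared barcodes Pf4 in B16F10 fibroblasts (0.28). In edgeR 3 uncalled values turned sign, Pf4 for genotype with no filter (0.02 in monocytes and macrophages, 0.23 in neutrophils) and Cxcl2 for tumor model in neutrophils with library totals (0.10). In MC38, 1 member, Cxcl3, became lower in monocytes and macrophages with equal weight per cell or with the Cd14-positive ungated cells (added after seeing the data), and 1, Cxcl1, in neutrophils without doublet removal. In fibroblasts 1 member was higher in B16F10 with equal cell weights, Cxcl3 turning to -0.32, and without doublet removal Pf4 turned to 1.01 in B16F10 and 1 member remained lower in MC38; the cause was not tested. The counts over all genes in monocytes and macrophages were 278 higher in B16F10 and 79 higher in MC38 with equal cell weights, 342 higher and 128 lower in B16F10 and 109 higher and 277 lower in MC38 at a minimum of 5 CPM, and 64 higher in MC38 with TMM. In neutrophils they were 127 lower in B16F10 with TMM, and 2211 higher and 3931 lower in B16F10 and 2961 higher and 3388 lower in MC38 at 5 CPM, where single UMIs pass. The genotype fit called 104 genes in monocytes and macrophages with no filter, 1 of them Cxcl5, and 9 in DESeq2; in neutrophils it called 7 with relative log expression scaling, 7 with no filter, 6 with the stricter gate and 4 in DESeq2 and with library totals (added after seeing the data). The tumor model fit in neutrophils called 450 genes in DESeq2 against 1071. Leaving out each library in turn gave 3636 (without Lrrc25-/- B16F10) to 5131 genes, and 3759 without WT MC38, between neutrophils and monocytes and macrophages against 5653. Leaving out a library from the genotype and tumor model fits left no residual degree of freedom. The stricter gate moved member levels by 0.683 to 1.11 times, and thinning lowered the shares of cells as given above. The neutrophil share ratio ranged from 3.36 to 3.79 in B16F10 and from 1.32 to 1.53 in MC38. No paired analysis was possible because each group holds 1 library, so that no replicate numbers pair samples; the library blocks of the class fits and the tumor model term of the genotype fit are the only matching. With 84 WT B16F10 neutrophils and 81 to 117 fibroblasts per library, depth limits Cxcr2 in the former and Cxcl5 in the latter.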
